A study of Mus musculus with 8 samples.

Results

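The enzymes that build fatty acids and load them onto glycerol were followed in the liver of mice lacking Abhd15. They form a list of 36 genes chosen by name, and each was represented by the array's transcript cluster that carries the gene as its only symbol, taking the cluster with the highest mean where there were several. In this way 35 of the 36 genes were measured, out of 22180 genes with such a cluster. Scd2 was left out, because the annotation gives its cluster a second symbol. The list was divided by role into 11 genes of fatty acid synthesis and its supply, 6 of chain elongation, 4 of desaturation (3 measured) and 15 of esterification and phospholipid synthesis.

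The livers came from male mice on the C57BL/6J background kept on normal chow, either wild type (WT, 3 samples) or Abhd15 knockout (KO, 5 samples). All mice had fasted overnight and then eaten chow for 1 hour, and the design text gives their age as 14 weeks, whereas the sample labels apply up to 14 weeks to the feeding period. The labels and design text do not say how the knockout was made or in which tissues it acts. Abhd15, a gene of the alpha/beta hydrolase family, has been studied mainly in adipocytes, and the comparison asks how its loss bears on liver transcripts in the early refed state. One Mouse Gene 2.0 ST array per liver gave a log2 expression value for each transcript cluster.

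Hepatocytes make fatty acids from acetyl-CoA when carbohydrate is plentiful. Citrate leaves the mitochondrion, is cleaved to acetyl-CoA in the cytosol, is carboxylated to malonyl-CoA and is then condensed into palmitate with NADPH as reductant. Palmitate is lengthened by elongases, given double bonds by desaturases and attached to glycerol 3-phosphate on the way to triglycerides and phospholipids. In liver these genes are known as targets of the transcription factors SREBP-1c, which insulin raises, and ChREBP, which responds to glucose metabolites, so that many of them are low in fasting and climb over hours of refeeding.

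As a check of the labels, the Abhd15 cluster stood at 5.64 ± 0.176 in the WT livers (SD, n = 3). In the KO livers it stood at 5.12 ± 0.0775 (SD, n = 5), each below every WT liver. The log2 difference was -0.52, or 1.43-fold lower, with an adjusted p of 0.795 in limma. The KO mean stayed above the array medians of 2.99 to 3.05, so the check is a limited one. On the first principal component (18% of the variance) KO livers 1 and 2 scored 55.2 and 50.8, against 0.22 for the next liver. On the second (15.6%) KO liver 4 scored 70, against 10.6 for the next. On the third (14.3%) KO livers 5 and 1 scored 50 and 33.4, and KO liver 2 scored -34.4. Among the 7478 genes with a mean log2 value of at least 5, the median deviation from the WT mean was -0.12 in KO liver 4 and between -0.04 and 0.01 in the other KO livers. The hepatocyte marker Albumin (Alb) read 12.91 to 13.14 in all livers, and 11 measured hepatocyte markers had a mean of 11.20 to 11.28 in WT and 11.05 to 11.33 in KO. Of 8 Kupffer cell markers, 6 were higher in the KO mean, and their mean level was 6.66, 6.39 and 6.78 in KO livers 1 to 3, 5.58 and 5.97 in KO livers 4 and 5 and 5.81 to 6.25 in WT. The 8 measured adipocyte markers had means of 4.86 to 5.41 in WT and 4.95 to 5.39 in KO, and the adipocyte-defining Adipoq was dim (1.86 to 3.63). In whole liver, fewer cells of a type and less RNA per cell cannot be told apart.

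No common shift of the synthesis pathway between the group means was detected. Of 35 measured members, 13 were higher and 22 lower in KO, and the median log2 difference was -0.07. These values lay close to the background of all brighter genes, of which 60.2% were lower in KO with a median of -0.04, against 62.9% of the members. No member passed the adjusted threshold of 0.05 in limma, the smallest adjusted p being 0.795, and 0% of all 23521 clusters tested did (smallest adjusted p 0.154). At an unadjusted p under 0.05 there were 2 members, Aacs (higher) and Hsd17b12 (lower), beside 6.08% of all clusters. In 4 members the WT and KO livers did not overlap (Aacs, higher, and Hsd17b12, Elovl5 and Pcyt2, lower), beside 4.43% of all clusters. That count was 7 without KO livers 1 and 2 and 7 without WT liver 1, where fewer livers make separation easier. It was 2 after each array's median was subtracted. All 4 members had a mean log2 value of at least 5. Of the 7478 genes that bright, 137 separated with KO higher and 314 with KO lower.

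**Figure D1:**
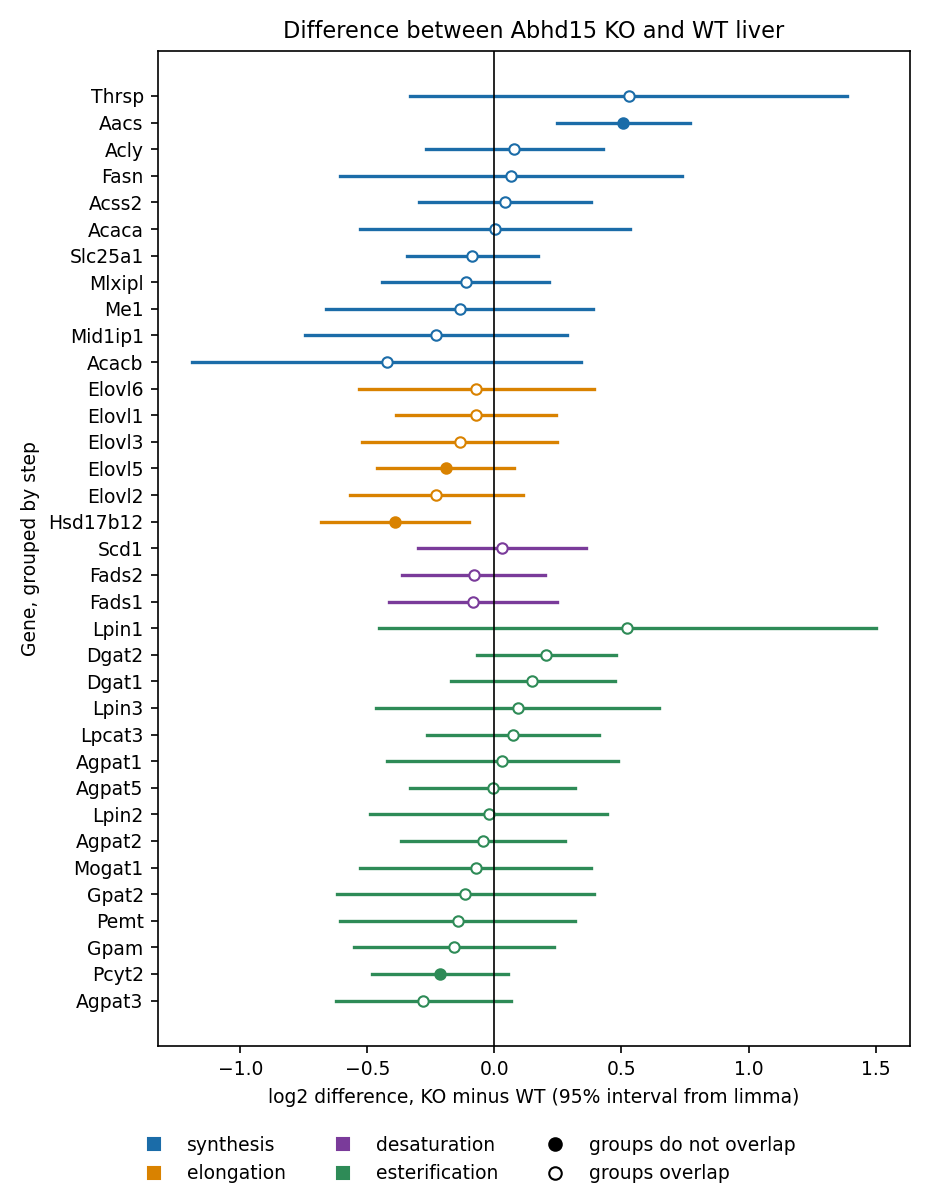
Difference between KO and WT means (log2, x axis) for the 35 measured members, with 95% intervals from limma. Filled points mark the 4 genes whose 3 WT and 5 KO livers did not overlap. The intervals of Aacs and Hsd17b12 leave out 0, and those of Thrsp, Lpin1 and Acacb are wide.

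By step, the synthesis members had a median log2 difference of 0.00 (6 higher, 5 lower), the elongation members -0.16 (0 higher, 6 lower), the measured desaturases -0.08 (1 higher, 2 lower) and the esterification members -0.02 (6 higher, 9 lower). The median over the brighter genes was -0.04. The SD of the step median between livers of a group was 0.184 for synthesis, 0.101 for elongation, 0.162 for desaturation and 0.0999 for esterification. These SDs describe single livers and are not the error of a difference between group means, so they do not test a step. Elovl3 and Elovl6, both elongases, took a positive difference without KO livers 1 and 2 (0.02 and 0.20).

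The member with the smallest p, Aacs, was listed with the genes of fatty acid synthesis and its supply. Aacs, the cytosolic enzyme that turns the ketone body acetoacetate into acetoacetyl-CoA for lipid synthesis, read 5.60, 5.68 and 5.66 in the WT livers and 6.18, 6.26, 6.08, 6.19 and 6.06 in the KO livers. All 5 KO livers lay above all 3 WT livers, and the spread within each group was small (SD 0.0424 and 0.0824). The log2 difference was 0.51 (SE 0.117, 95% interval 0.25 to 0.77), or 1.42-fold, with a limma adjusted p of 0.795 over all clusters. The exact permutation p (two-sided) was 0.0179, the lowest value possible with 56 splits. That p is not adjusted for the number of genes and uses the same values, so it adds no separate support. The log2 difference stayed between 0.48 and 0.53 when any 1 liver was left out. Acly, ATP citrate lyase, read 7.90, 8.18 and 8.17 in WT and 8.12, 8.35, 7.97, 7.94 and 8.43 in KO, so that the groups overlapped (log2 difference 0.08, SE 0.157). Acss2, which makes acetyl-CoA from acetate, had a difference of 0.04 (SE 0.153), and Slc25a1, the mitochondrial citrate carrier, one of -0.09 (SE 0.117). Slc25a1 was among the steadiest members, with an SD of 0.0499 over the KO livers.

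Promoters are shown for 3 genes, Aacs, Fasn and Elovl6. Those of Scd1 and Dgat2 were also to be shown, but no promoter was available for them. They are the 250 bases before the annotated start in NCBI RefSeq's GRCm38.p6 tables, 5′ to 3′ on the gene's strand, at chr5:125475623-125475872 (plus strand) for Aacs, chr11:120824548-120824797 (minus strand) for Fasn and chr3:129532136-129532385 (plus strand) for Elovl6. Capitals mark CCAAT boxes, the site known to be bound by NF-Y, on either strand.
Aacs: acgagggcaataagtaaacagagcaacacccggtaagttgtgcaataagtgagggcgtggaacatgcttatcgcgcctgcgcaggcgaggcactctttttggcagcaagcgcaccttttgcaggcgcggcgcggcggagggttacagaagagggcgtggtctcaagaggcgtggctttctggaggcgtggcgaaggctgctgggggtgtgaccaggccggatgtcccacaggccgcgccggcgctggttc
Fasn: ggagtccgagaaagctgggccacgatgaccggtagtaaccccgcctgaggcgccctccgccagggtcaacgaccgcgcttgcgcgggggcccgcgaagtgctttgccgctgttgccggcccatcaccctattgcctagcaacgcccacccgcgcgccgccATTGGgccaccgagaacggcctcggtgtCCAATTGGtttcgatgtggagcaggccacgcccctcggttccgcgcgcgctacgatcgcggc
Elovl6: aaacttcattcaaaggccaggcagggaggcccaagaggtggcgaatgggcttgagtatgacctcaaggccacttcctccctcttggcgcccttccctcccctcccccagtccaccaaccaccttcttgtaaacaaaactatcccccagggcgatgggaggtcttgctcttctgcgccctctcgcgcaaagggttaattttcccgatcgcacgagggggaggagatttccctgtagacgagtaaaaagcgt

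The Fasn promoter holds 3 CCAAT matches, 1 at bases 90 to 86 before the start and an overlapping pair at bases 62 to 58 and 59 to 55. Besides CCAAT, the letters searched on both strands were the sterol regulatory element TCACNCCAC, the E-box CACGTG and the GC box GGGCGG, and none of these is in any of the 3 windows. RefSeq's table held 38 promoters for 28 of the 36 listed genes. A CCAAT box was in 42.1% of those 38 and in 33.8% of all 32851 promoters, a GC box in 50% and 32.7%, an E-box in 10.5% and 6.02%, and the sterol element in 2.63% (an Mlxipl promoter) and 1.05%. A match describes these letters and does not show binding. The lack of an exact match in these windows does not show that a site is absent.

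The carboxylases and the synthase itself had a wide spread among the KO livers, and none had a difference between means past the test. Fasn, the fatty acid synthase, read 8.28, 8.32 and 8.13 in WT and 7.82, 7.86, 7.98, 8.61 and 9.28 in KO. The WT livers lay close together, while 3 KO livers were below all of them and KO livers 4 and 5 above, so the log2 difference of 0.07 (SE 0.305, 95% interval -0.61 to 0.74) averages livers on both sides. Its sign turned without KO liver 5 (-0.18) or KO liver 4 (-0.01). The difference was 0.38 without KO livers 1 and 2, which held the lowest Fasn values. KO livers 4 and 5 were not left out together. Acaca, the cytosolic acetyl-CoA carboxylase of lipogenesis, had the same layout, with 7.48, 7.24 and 7.14 in WT and 6.91, 7.04, 6.95, 7.65 and 7.91 in KO. Again KO livers 1 to 3 lay below the WT range and KO livers 4 and 5 above it (log2 difference 0.00, SE 0.24). Acacb, the mitochondria-bound carboxylase whose malonyl-CoA restrains carnitine palmitoyltransferase, read 7.96, 7.41 and 6.88 in WT and 6.42, 6.26, 7.33, 7.31 and 7.66 in KO. KO livers 1 and 2 were lowest, the WT livers themselves spread over more than 1 log2 unit, and the difference of -0.42 (SE 0.345, adjusted p = 0.892) was 0.01 without those KO livers. Without any 1 liver it ran from -0.69 (without WT liver 3) to -0.15 (without WT liver 1).

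Me1, the malic enzyme that supplies NADPH, read 9.64, 9.31 and 9.21 in WT and 8.86, 8.998, 8.96, 9.60 and 9.84 in KO (log2 difference -0.14, SE 0.237). As with Fasn, KO livers 1 to 3 lay below the WT range and KO liver 5 above it. The difference was -0.28 without KO liver 5 and -0.01 without WT liver 1. Thrsp, the Spot 14 protein long known as a lipogenic response gene, read 7.07, 7.50 and 6.98 in WT and 7.25, 7.35, 6.99, 7.99 and 8.99 in KO. KO livers 4 and 5 were above every WT liver and the other KO livers within the WT range. Its difference of 0.53 (SE 0.388, adjusted p = 0.884) became 0.21 without KO liver 5. Its relative Mid1ip1, an activator of acetyl-CoA carboxylase, had a difference of -0.23 (SE 0.233), and -0.46 without WT liver 1 or -0.08 without KO liver 1. Mlxipl, which encodes ChREBP, read 8.46, 8.34 and 8.61 in WT and 8.21, 8.70, 8.36, 8.27 and 8.24 in KO (difference -0.11, SE 0.149). Its highest and lowest livers were both KO, and it did not follow Fasn.

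**Figure D2:**
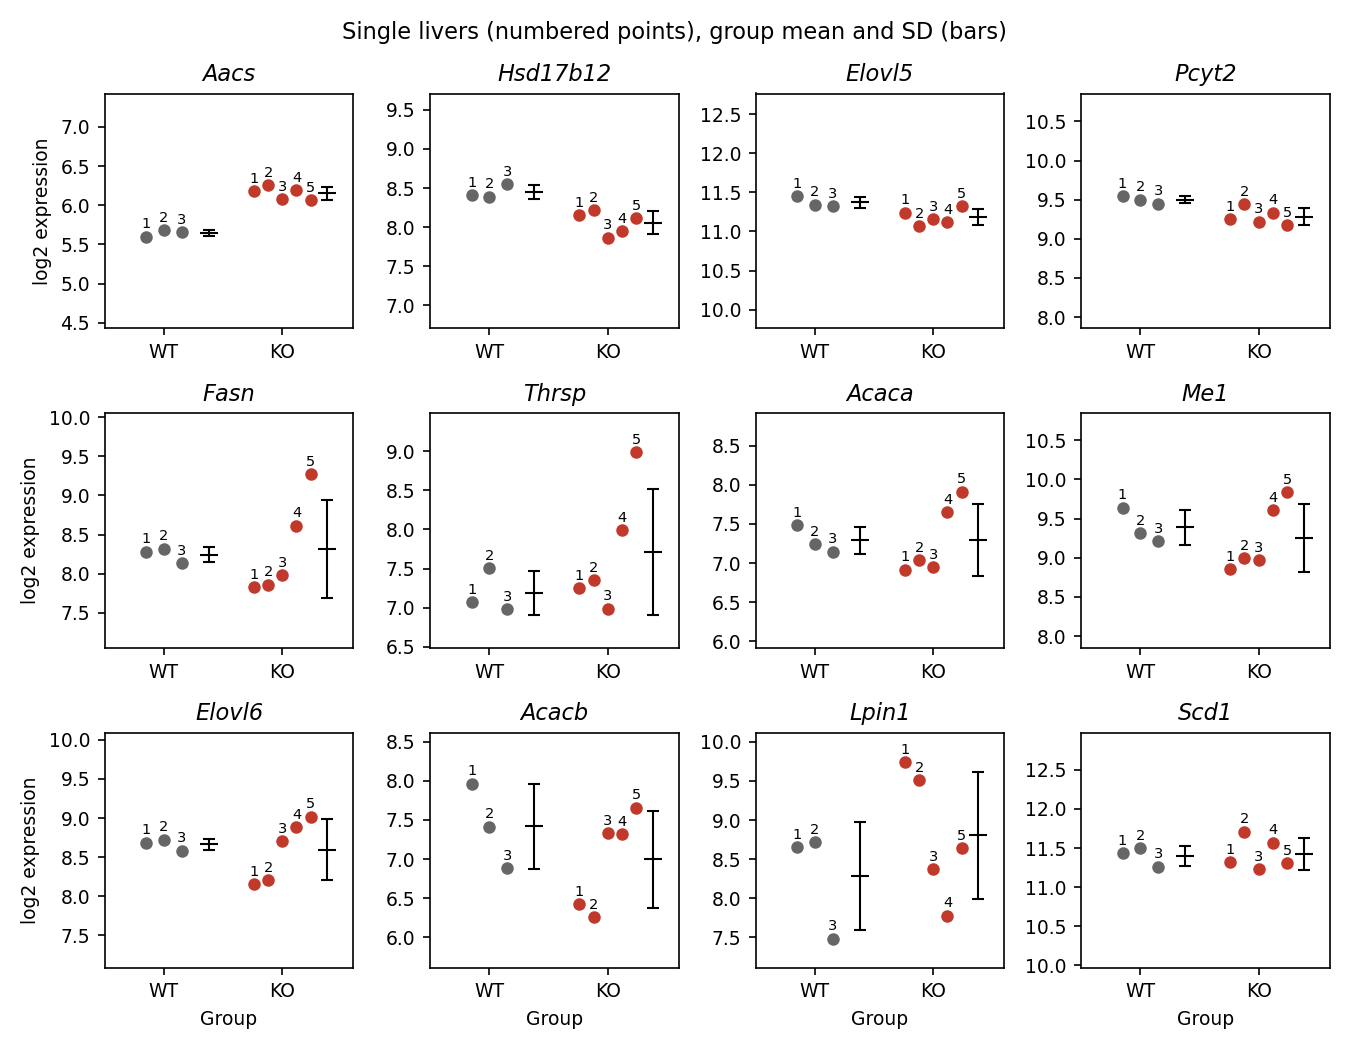
log2 expression (y axis, equal span in all panels) of 12 members in each liver, with points numbered by replicate and bars giving the group mean and SD (n = 3 WT, n = 5 KO). In the top row the 5 KO livers lie on 1 side of the WT livers. In Fasn, Thrsp, Acaca, Me1 and Elovl6, KO livers 4 and 5 are the highest of the KO livers, and in Lpin1 KO livers 1 and 2 are.

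All 6 elongation members had a lower mean in KO, beside 60.2% of the 7478 brighter genes. In 2 of them the groups did not overlap. Of those brighter genes, 314 separated with KO lower and 137 with KO higher. Hsd17b12, the 3-ketoacyl-CoA reductase that serves every round of elongation, read 8.41, 8.39 and 8.55 in WT and 8.16, 8.22, 7.86, 7.94 and 8.11 in KO. Each KO liver was below each WT liver, giving a log2 difference of -0.39 (SE 0.132, 95% interval -0.68 to -0.10), or 1.31-fold lower, with an adjusted p of 0.795 and an exact permutation p of 0.0179. Leaving out any 1 liver kept it between -0.43 and -0.34. Elovl5, an elongase of polyunsaturated chains, read 11.454, 11.342 and 11.327 in WT and 11.240, 11.071, 11.155, 11.118 and 11.326 in KO. The groups were apart by only 0.001 between WT liver 3 and KO liver 5, and the difference of -0.19 (SE 0.122, adjusted p = 0.87) had an interval reaching from -0.46 to 0.08.

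Elovl2, which extends long polyunsaturated chains towards docosahexaenoic acid, read 11.08, 11.21 and 10.92 in WT and 11.02, 11.09, 10.85, 10.64 and 10.63 in KO (difference -0.23, SE 0.154). KO livers 4 and 5 were the lowest, which is opposite to their place for Fasn. Elovl6, which lengthens palmitate to stearate, read 8.68, 8.73 and 8.58 in WT and 8.16, 8.21, 8.70, 8.88 and 9.02 in KO. Here KO livers 1 and 2 were below the narrow WT range and KO livers 4 and 5 above it (difference -0.07, SE 0.209). Elovl3, an elongase of saturated and monounsaturated chains, read 11.07, 11.30 and 10.91 in WT and 10.68, 10.75, 10.96, 11.04 and 11.34 in KO (difference -0.14, SE 0.173). Its KO livers stood in the same order as those of Elovl6 and straddled the WT range. Elovl1, an elongase of very long chains, had a difference of -0.07 (SE 0.143), which was 0.03 without WT liver 1.

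The desaturases were the step with the smallest differences among the members measured. Scd1, the stearoyl-CoA desaturase of liver, read 11.44, 11.50 and 11.26 in WT and 11.32, 11.71, 11.23, 11.57 and 11.31 in KO. The groups overlapped fully, with a log2 difference of 0.03 (SE 0.149) and a 95% interval of -0.30 to 0.36, which bounds the difference these livers can show. Fads1 and Fads2, the front-end desaturases of polyunsaturated synthesis, had differences of -0.09 (SE 0.149) and -0.08 (SE 0.127). Both were lowest in KO liver 5 (9.90 and 10.937), the liver in which Fasn was highest. For Fads2, KO liver 4 read nearly the same (10.94).

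Among the acyltransferases that begin glycerolipid synthesis, Gpam, the mitochondrial glycerol-3-phosphate acyltransferase, read 9.90, 9.88 and 9.60 in WT and 9.42, 9.25, 9.76, 9.84 and 9.91 in KO. KO livers 1 and 2 were the lowest and the others lay in or just above the WT range (difference -0.16, SE 0.178, and 0.04 without KO livers 1 and 2). Agpat3, a lysophosphatidic acid acyltransferase, read 8.72, 8.73 and 8.49 in WT and 8.27, 8.27, 8.36, 8.18 and 8.75 in KO. It had 4 KO livers below the WT range and KO liver 5 above it (difference -0.28, SE 0.156, adjusted p = 0.849). The related Agpat1, Agpat2 and Agpat5 had differences of 0.03, -0.04 and -0.01, each with KO livers on both sides of the WT range. Gpat2, another glycerol-3-phosphate acyltransferase, and Mogat1, a monoacylglycerol acyltransferase, were dim (means 2.56 and 3.19, near the array medians of 2.99 to 3.05), and a signal above background is not shown for them.

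Lpin1, a phosphatidic acid phosphatase known to climb in fasted liver, had the largest SD over the KO livers of the brighter members (0.812), just above that of Thrsp (0.802). It read 8.65, 8.72 and 7.48 in WT and 9.74, 9.51, 8.37, 7.78 and 8.64 in KO. KO livers 1 and 2 lay above all others, WT liver 3 was lowest, and the difference of 0.52 (SE 0.442, adjusted p = 0.892) became -0.02 without KO livers 1 and 2. Without any 1 liver it ran from 0.12 (without WT liver 3) to 0.78 (without KO liver 4). Lpin2, its relative, had a difference of -0.02 (SE 0.21), with all KO livers inside a wide WT range of 8.37 to 9.40. Lpin3 was dim, with a mean of 3.81 and a difference of 0.09 (SE 0.251).

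Both diacylglycerol acyltransferases of the last step to triglyceride had higher means in KO. Dgat2, the diacylglycerol acyltransferase that mainly uses newly made fatty acids, read 9.45, 9.62 and 9.56 in WT and 9.75, 9.84, 9.76, 9.57 and 9.82 in KO. All KO livers but KO liver 4 exceeded the WT range, with a log2 difference of 0.21 (SE 0.124, 95% interval -0.07 to 0.48), an adjusted p of 0.864 and an exact permutation p of 0.0714. Dgat1, which also esterifies fatty acids taken up from outside, read 6.70, 6.57 and 6.30 in WT and 6.57, 6.48, 6.71, 6.87 and 6.75 in KO. Those groups overlapped (difference 0.15, SE 0.146, and 0.04 without WT liver 3).

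Of the phospholipid enzymes, Pcyt2, which makes CDP-ethanolamine, read 9.54, 9.50 and 9.45 in WT and 9.25, 9.44, 9.22, 9.33 and 9.17 in KO. The highest KO liver, at 9.445, was just under the lowest WT liver, at 9.450. The difference was -0.21 (SE 0.122, 95% interval -0.48 to 0.06), with a limma adjusted p of 0.855. The exact permutation p of 0.0357 is not adjusted for the number of genes. Pemt, which methylates phosphatidylethanolamine to phosphatidylcholine, ranged from 9.84 to 10.23 in WT and from 9.46 to 10.31 in KO (difference -0.14, SE 0.209), lowest in KO livers 4 and 5. That difference was -0.27 without WT liver 1 and -0.02 without KO liver 4. Lpcat3, which puts polyunsaturated chains into lysophosphatidylcholine, had a difference of 0.07 (SE 0.154), with all KO livers inside the WT range of 9.47 to 9.91.

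Several members differed more among the KO livers than between the genotypes. The SD over the 5 KO livers exceeded that over the 3 WT livers in 26 of the 32 members with a mean of at least 5 (81.2%), beside 69.6% of the 7478 brighter genes. Of those 32 members, 7 fell in the top 10% of KO spread among those genes (21.9%): Lpin1, Thrsp, Fasn, Acacb, Acaca, Me1 and Elovl6, with SDs of 0.812 down to 0.391. In WT, 4 of 32 (12.5%) did so, Lpin1, Acacb, Lpin2 and Mid1ip1, while the WT SDs of Fasn (0.0994) and Elovl6 (0.0735) lay at percentiles 33.9 and 21.4. The KO count was 5 without KO livers 1 and 2 and 6 to 9 without any 1 KO liver. This count was made after the values were seen, and a group of 5 gives a steadier SD than a group of 3. Of the 32 members, 16 (50%) had KO livers both below and above the whole WT range, beside 41.7% of the brighter genes.

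**Figure D3:**
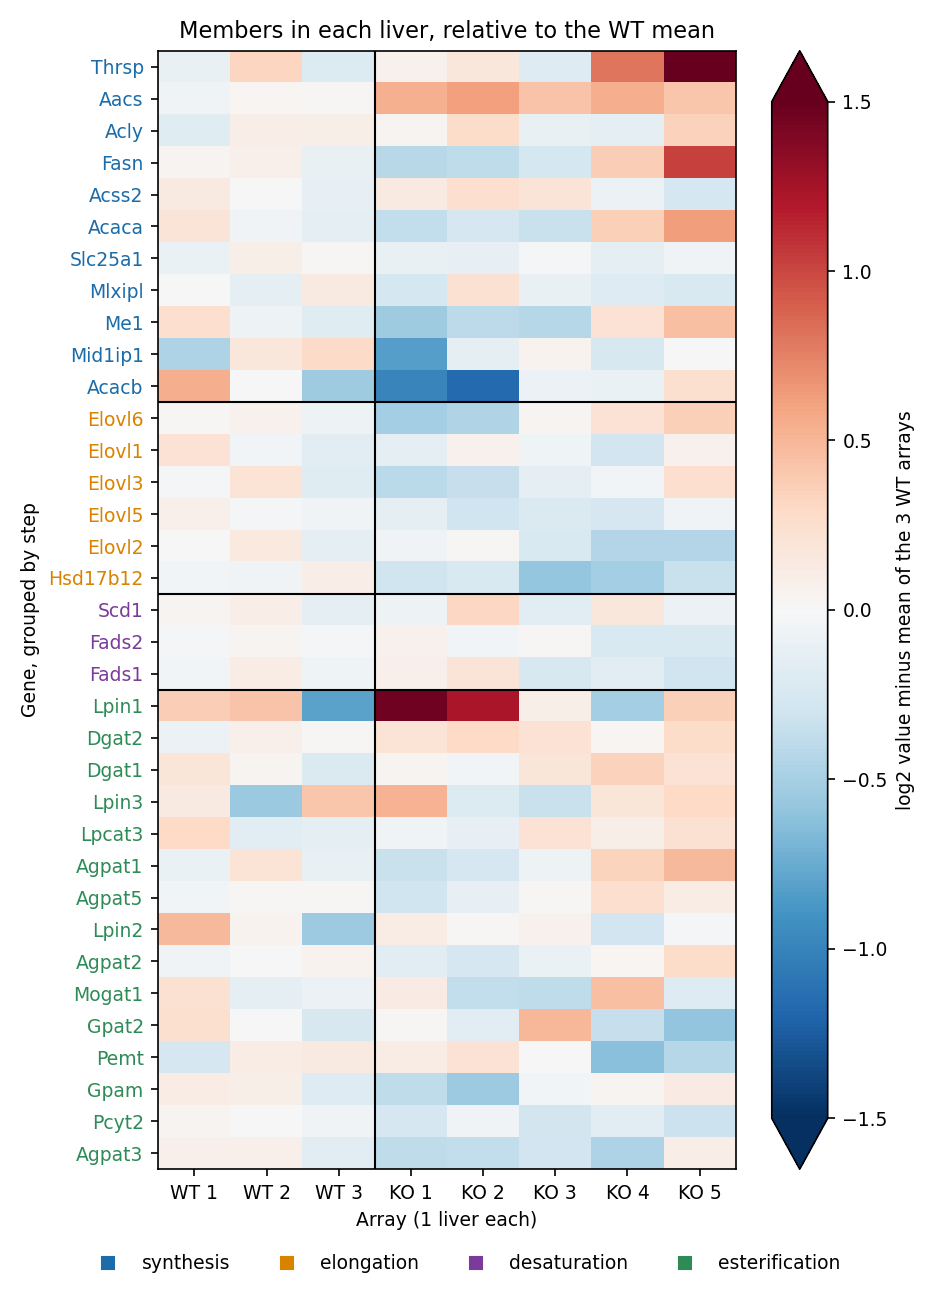
Each member (rows, grouped by step) in each liver (columns), as the log2 value minus the mean of the 3 WT livers, with red above and blue below and the colour scale ending at 1.5 either way. Aacs is red in all 5 KO livers and Hsd17b12 blue. Fasn, Acaca, Me1 and Elovl6 are blue in KO livers 1 and 2 and red in KO livers 4 and 5.

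The highest values of the 32 brighter members fell in 7 livers and the lowest in all 8, unevenly. KO liver 5 gave the highest value of the 8 livers in 11 of the 32 brighter members (34.4%, beside 17.5% of the 7478 brighter genes), among them Acly, Acaca, Fasn, Me1, Thrsp, Elovl3, Elovl6, Gpam, Agpat1, Agpat2 and Agpat3. It also gave the lowest value in 5 of 32 (15.6%, beside 11.9%). KO liver 2 gave the highest in 7 of 32 (21.9%, beside 14.1%) and WT liver 1 in 6 of 32 (18.8%, beside 15.4%). KO liver 1 gave the lowest value in 9 of 32 (28.1%, beside 13.5%). KO liver 4 gave the lowest value in 4 of 32 (12.5%), although 26.9% of the brighter genes were lowest there. For the 11 synthesis members, the median deviation from the WT mean was -0.26, -0.12, -0.11, -0.09 and 0.35 in KO livers 1 to 5, and -0.11 to 0.03 in the WT livers. For the 6 elongation members it was -0.21, -0.27, -0.18, -0.27 and 0.005 in KO livers 1 to 5, and -0.11 to 0.015 in the WT livers. For the 3 measured desaturases it was 0.06, 0.20, -0.17, -0.17 and -0.23, opposite in sign to synthesis in KO livers 1, 2 and 5. Over the 7478 brighter genes the median deviation was -0.035, -0.023, -0.012, -0.119 and 0.006 in KO livers 1 to 5. KO liver 4 thus had the lowest median over the brighter genes, and the part of that in its step values was not tested. The Kupffer cell marker mean given above was higher in KO livers 1 to 3 than in KO livers 4 and 5, and its part in these values was not tested. The labels give no cage, food intake or order of harvest.

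**Figure D4:**
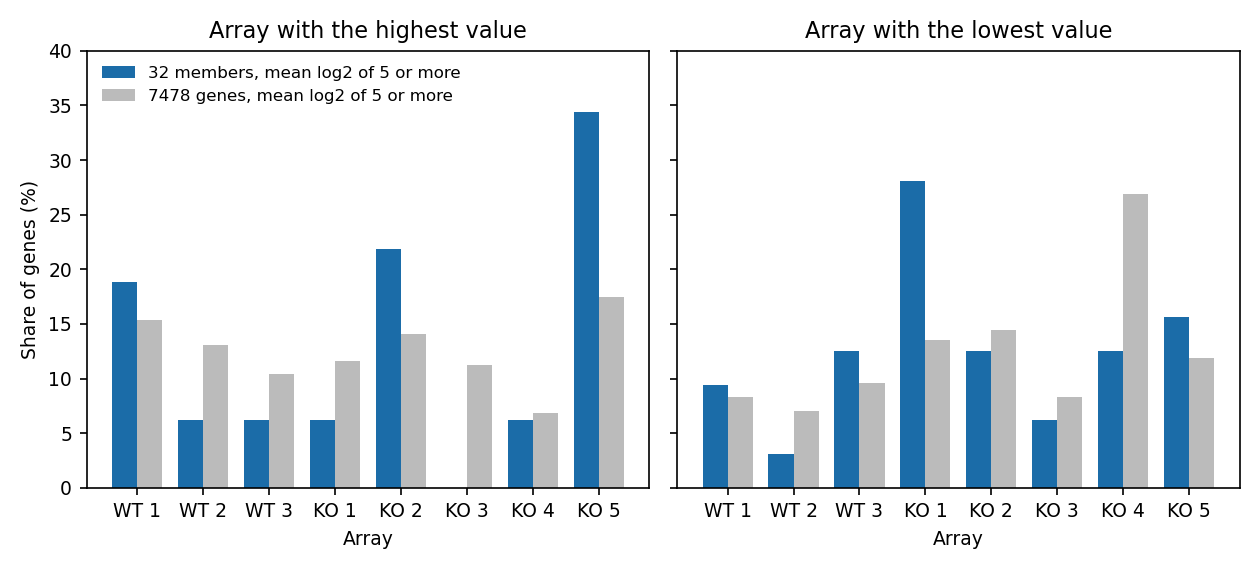
Share of genes (%, y axis) that had their highest (left) or lowest (right) value in each liver (x axis), for the 32 members and the 7478 genes with a mean log2 value of at least 5. KO liver 5 held the highest value in 34.4% of the members, and KO liver 1 the lowest in 28.1%.

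The surrounding pathway was described with 79 further genes, of which 69 were measured. In KO, 16 were higher and 53 lower, with a median log2 difference of -0.10 (76.8% lower, beside 60.2% of the brighter genes, although 20 of the 69 were dimmer than that). None passed the adjusted threshold, 1 had an unadjusted p under 0.05 (beside 6.08% of all clusters) and 3, all lower, had groups that did not overlap (beside 4.43% of all clusters). Neither count is above that background. Of 18 regulators and sensors, 4 were higher and 14 lower. Scap, the escort protein that carries SREBP to the Golgi, was the 1 gene with an unadjusted p under 0.05, at 8.26, 8.03 and 8.11 in WT and 8.64, 8.49, 8.57, 8.66 and 8.19 in KO (difference 0.38, SE 0.145, adjusted p = 0.795). KO liver 5, the highest for Fasn, was the single KO liver inside the WT range for Scap.

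Insig1, an SREBP target that retains Scap in the endoplasmic reticulum, read 7.87, 9.40 and 9.34 in WT and 8.38, 8.98, 8.39, 7.54 and 7.44 in KO (difference -0.72, SE 0.417). It was lowest in KO livers 4 and 5, where Fasn was highest, and also low in WT liver 1. Srebf1, the gene of SREBP-1, read 4.29, 5.80 and 5.47 in WT and 4.80, 4.95, 4.94, 4.63 and 5.25 in KO, so that all KO livers lay within the WT range (difference -0.27, SE 0.294). Pklr, the liver pyruvate kinase and a ChREBP target, had a difference of -0.01 (SE 0.163).

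All 7 measured genes of NADPH and carbon supply were lower in the KO mean (median -0.14, range -0.19 to -0.05), with Idh1, the cytosolic isocitrate dehydrogenase, at -0.19 (SE 0.122) and Taldo1, transaldolase, at -0.18 (SE 0.153). Of 8 acyl-CoA synthetases and binding proteins, 5 were lower. Acsl5, which activates long-chain fatty acids, read 9.50, 9.49 and 9.42 in WT and 9.34, 9.30, 9.09, 9.14 and 9.20 in KO (difference -0.26, SE 0.121, adjusted p = 0.838), and its groups did not overlap. Dbi, the acyl-CoA binding protein, also separated (difference -0.28, SE 0.157). Of 13 other elongation and desaturation enzymes, 9 were lower, and the smallest p-values were those of Fads6 (-0.24, SE 0.174) and the cytochrome b5 gene Cyb5a (-0.11, SE 0.119). Of 23 other acyltransferases and phospholipid enzymes, 18 were lower. Chpt1, the choline phosphotransferase, was below every WT liver in each KO liver (difference -0.28, SE 0.135, adjusted p = 0.838), and the dim Pnpla3 had a difference of 0.40 (SE 0.191).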

How the data were processed

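The authors deposited log2 expression values for 41345 transcript clusters in 8 liver arrays, made from 200 ng of RNA each. The submitters' processing notes list RMA and oligo, and the design text names Expression Console, all without settings; the genome build is not stated there. That the scale is log2 was read from the range of 0.409 to 13.27. RMA as usually run compresses differences of dim clusters. The columns were used as deposited.

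Gene symbols came from the platform annotation, with 23521 clusters having 1 symbol, 1814 several and 16010 none listed. KO was compared with WT by limma 3.58.1 in R 4.3.3 (lmFit, eBayes, no covariates, 6 residual degrees of freedom), and two-sided p-values were adjusted by Benjamini-Hochberg over those 23521. The fit was run on simulated data with planted changes, as a check of the code. How often it finds differences as small as those of the members is not reported here. The exact permutation test ran over all 56 splits, and its p-values are not adjusted. Replicates are separate samples of a group by the titles. Nothing lists the animals, so the p-values rest on the spread of these samples alone, which may be partly technical. The number of arrays limits precision, and slide and scan date were not analysed here.

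Values in every liver are given for the 10 members with the smallest p and for fixed members of each step (Mlxipl, Acly, Acaca, Fasn, Thrsp, Elovl6, Elovl3, Scd1, Gpam, Lpin1, Dgat1, Dgat2). Me1 was added after its values were seen. From the pathway lists the 2 genes with the smallest p per list are named, with Srebf1, Pklr and Pnpla3. The members and lists were chosen with earlier results of these data known. Alternatives were leaving out arrays, a replicate block, all clusters, a minimum mean of 5, trend and robust settings, array weights, subtraction of array medians, quantile normalization and averaging a gene's clusters.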

Additional observations from a re-analysis of the deposited data

How the results depend on the processing

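No member passed the adjusted threshold under any alternative run. Over all clusters, 0 passed as reported, 3 with all clusters fitted together, 3 with trend and robust settings, 1 with a minimum mean of 5 and 1 with a replicate block. Members at an unadjusted p under 0.05 numbered 2, 6 with trend and robust settings and 1 to 3 without any 1 array (1 without WT array 3, 3 without KO array 5). Members with separate groups numbered 4, 7 without KO arrays 1 and 2, 10 in the 6 arrays of the replicate block, 2 with array medians subtracted and 4 to 7 without any 1 array. Fewer arrays make separation easier by construction. The replicate block joined arrays that share only a number (correlation of same-numbered deviations -0.0477, 0.0157 and 0.0212). The medians by step moved by less than the SD between livers in every alternative. That SD describes single livers and is a loose bar, so this does not show the medians to be stable. The synthesis median, 0.002 as reported, was -0.094 without KO array 5. The log2 difference of 15 members changed sign in some omission of 1 array, and the ranges over these omissions were Acly -0.013 to 0.14, Acss2 -0.019 to 0.12, Acaca -0.15 to 0.10, Fasn -0.18 to 0.19, Elovl1 -0.15 to 0.033, Elovl6 -0.18 to 0.038, Scd1 -0.042 to 0.079, Gpat2 -0.27 to 0.007, Agpat1 -0.082 to 0.13, Agpat2 -0.12 to 0.009, Agpat5 -0.072 to 0.065, Lpin2 -0.29 to 0.22, Lpin3 -0.19 to 0.30, Mogat1 -0.20 to 0.038, Lpcat3 -0.004 to 0.22. Other sign changes follow. Without KO arrays 1 and 2 the differences were Acss2 -0.057, Acacb 0.013, Me1 0.080, Elovl3 0.023, Elovl6 0.20, Scd1 -0.029, Gpam 0.042, Agpat2 0.068, Agpat5 0.13 and Lpin1 -0.022. With the replicate block they were Acaca -0.32, Fasn -0.36, Fads1 0.012, Fads2 0.014, Gpat2 0.12, Agpat1 -0.22, Lpin2 0.064, Lpin3 -0.005 and Pemt 0.11. Lpin1 had a log2 difference of 0.92 with the replicate block (adjusted p = 0.594 in limma). Array weights gave Acaca -0.045, Agpat1 -0.007 and Lpin2 0.006. Quantile normalization gave Agpat5 0.055. Averaging a gene's clusters gave Lpin2 0.14. None of these members was past the threshold in either setting, and the cause was not tested. The dim members Gpat2, Lpin3 and Mogat1 are limited by signal near the array medians.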

Other observations

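Clusters of the members that the highest-mean rule set aside add a view of Lpin2 and Mid1ip1. The dimmer cluster of Lpin2, the phosphatidic acid phosphatase, read 4.82, 3.45 and 3.77 in WT and 6.17, 5.12, 3.00, 3.38 and 3.87 in KO. KO livers 1 and 2 were highest in it, as they were for Lpin1, whereas the brighter Lpin2 cluster showed no such split (9.03 and 8.93 in those livers). Whether the dimmer cluster reads a separate transcript was not tested. Of the 2 dimmer Mid1ip1 clusters, 1 had a log2 difference of -0.43 (SE 0.204, adjusted p = 0.838) and the other -0.22 (SE 0.14), the same direction as the -0.23 of the brightest.

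Cidec, a lipid droplet protein listed here among adipocyte markers and also made in fatty liver, read 9.45, 8.54 and 7.57 in WT and 7.80, 6.49, 7.98, 8.45 and 9.88 in KO. It was highest in KO liver 5, where 11 members were highest, and lowest in KO liver 2. It was picked out after its values were seen.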
